A study of Mus musculus with 19 samples.

Results

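The genes described here are those whose level in the mouse ovary at gestation day (gd) 16 and gd18 differed from that at both ends of the interval, gd12 and postnatal day (pnd) 2. The comparison set the 6 arrays titled gd12 and pnd2 against the 6 titled gd16 and gd18, 12 of the 19 arrays of the series. It took the mean of the gd12 and pnd2 stage means minus the mean of the gd16 and gd18 stage means of log2(signal + 31), called the return contrast below. Calls were made where the adjusted p was below 0.05 (limma, Benjamini-Hochberg). A called gene was termed returning when all 6 arrays of gd12 and pnd2 lay above, or all 6 below, all 6 arrays of gd16 and gd18. Of 12592 tested genes, 216 returned high (1.72%) and 489 returned low (3.88%).

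All samples were ovaries of wild-type CD-1 females, an outbred strain, with matings timed within a window of 2 hours and organs excised whole. The 3 gd12 samples (numbers 13, 14 and 15) are pools of 3 by their labels, and those of gd16 (7, 8 and 9), gd18 (4, 5 and 6) and pnd2 (1, 2 and 3) are labelled as not pooled. The text of the series instead gives every sample as the ovaries of 1 animal, each from another dam, so the pooling of the gd12 samples is not settled. The gd11 and gd14 arrays, 3 each and also labelled as pools of 3, were in the fit but did not choose genes. By their labels gd11 samples 16 and 18 held gonad with mesonephros, and 18 and 19 shared a dam. A single reference array held whole animals of both sexes at pnd 0.5.

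At gd12 the germ cells of the mouse ovary are still dividing by mitosis and express genes of pluripotency and primordial germ cell identity. They then enter meiosis, and at gd16 and gd18 most are in meiotic prophase, in which chromosomes pair along the synaptonemal complex. By pnd2 most surviving oocytes have reached diplotene arrest and are being enclosed in primordial follicles by pregranulosa cells. Whole ovaries were measured, so fewer cells of a type and less RNA per cell cannot be told apart in any result below.

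The 12 arrays were alike in the share of probe sets above 116.05, the median of all ovary values (48.98% to 54.17%). The gd16 arrays correlated less with each other (0.9544 to 0.9579) than those of the other compared stages (0.9657 to 0.9743). Xist, the RNA of the inactive X chromosome, had a signal of 44.79 on the array of gd16 sample 7 and of 11310 to 18580 on the other ovary arrays, so this library went against its label for this gene. Its Y-linked genes were near background: Eif2s3y read 40.23 there and 29.83 and 33.08 on the other gd16 arrays. Without this sample, which leaves fewer arrays to keep apart, 256 genes returned high and 544 returned low. Under that setting all 57 genes named by the rule kept their direction and stayed called. The 3'/5' ratio of Gapdh, a sign of RNA quality, lay between 3.48 and 4.28 on the gd12 arrays, 4.27 and 5.59 on those of gd16, 4.85 and 5.2 on those of gd18, and 5.07 and 5.41 on those of pnd2. Among the compared stages it was lower at gd12 than at the others apart from an overlap with gd16, and at pnd2 it lay within the gd16 range. That of beta-actin was 2.26 to 2.33 on the gd12 arrays, 2.33 to 3.54 at gd16, 2.68 to 2.99 at gd18, and at pnd2 2.08 to 3.36. The part of these ratios in the results was not tested.

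Over all tested genes, 1565 (12.4%) were called higher at gd12 and pnd2 and 2121 (16.8%) lower. Most of these overlapped between the groups of arrays, 1349 among the higher and 1632 among the lower. A mean of 2 stages can be high through 1 stage alone, but how often this gave the overlap was not tested. Of the genes that returned high, 181 of 216 were called in each flank taken singly (gd12 minus the mean of gd16 and gd18, and pnd2 minus the same), as were 407 of the 489 that returned low. Over all tested genes both flanks were called higher for 359 (2.85%) and lower for 675 (5.36%). Both flanks use the same gd16 and gd18 arrays, and the arrays of the flanks also chose the returning genes. Many of the 181 and 407 flank calls thus follow from the choice, and nothing is read from them. The median return contrast, by which the genes were chosen, was 0.75 for those that returned high and -0.81 for those that returned low. Over all tested genes it was -0.05. The contrast exceeded 2-fold for 60 and 181 of them. Counts of each direction depended on the scaling: over probe sets 2834 were higher and 3750 lower (43% higher), against 4315 and 2199 (66.2% higher) when arrays were scaled to equal medians, which moved the median contrast of all probe sets from -0.047 to 0.064. The returning genes were then 352 high and 278 low. The list medians given below kept their sign under that scaling, at 1.24 for pluripotency, 0.70 for mitosis, 0.56 for DNA replication, -1.49 for meiotic prophase and -0.89 for the germ cell and piRNA list. Without gd16 sample 7, members called higher numbered 16 of 22, 31 of 39 and 21 of 35 in the first 3 of these lists, and members called lower 28 of 36 and 13 of 21 in the others.

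**Figure D1:**
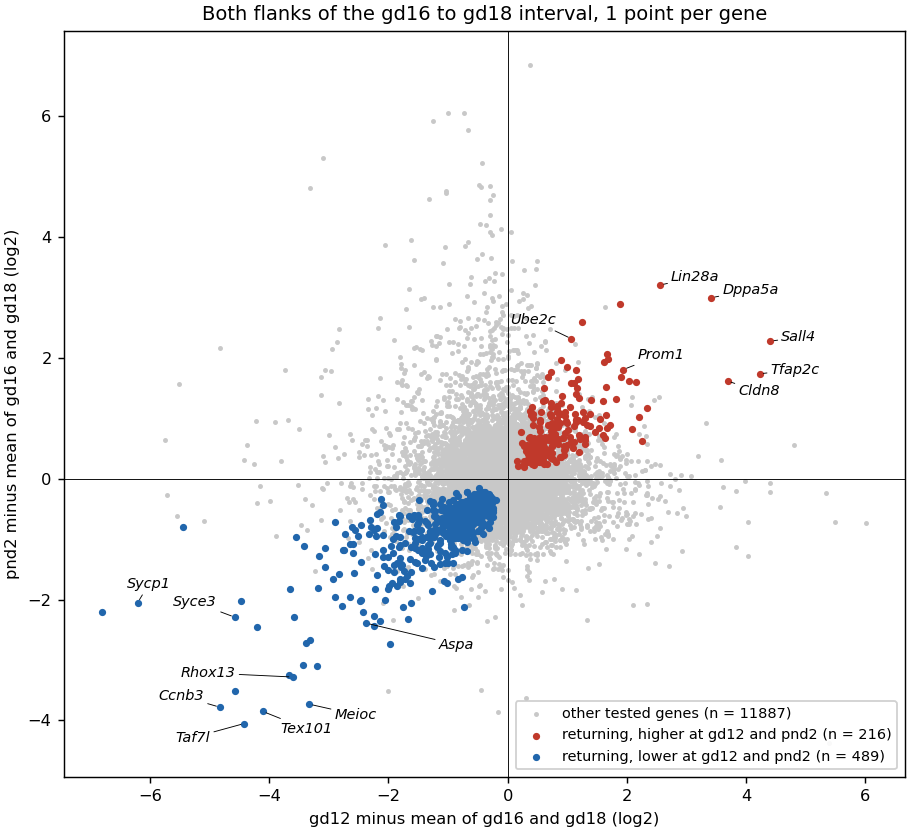
Each point is 1 of 12592 tested genes, placed by its log2 difference between gd12 and the mean of gd16 and gd18 (horizontal) and between pnd2 and the same mean (vertical). Red marks the 216 genes that returned high and blue the 489 that returned low. Dppa5a lies at 3.42 and 3.00 and Taf7l at -4.42 and -4.05.

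Genes of pluripotency and primordial germ cell identity led the genes that returned high. Of the 23 tested members of that list, 15 (65.2%, against 12.4% of all tested genes) were called higher in the return contrast and 0 lower. The median was 1.12 (all tested genes -0.05). Against 1.72% of all tested genes, 6 members returned: Sall4, Dppa5a, Tfap2c, Lin28a, Pou5f1 and Prdm1. The median of the list was 1.60 in the gd12 flank and 0.27 in the pnd2 flank, so the list as a whole leaned on gd12.

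Dppa5a, an RNA-binding protein of pluripotent cells, read 9468, 13270 and 7126 at gd12, 596.6, 660.2 and 874.3 at gd16, 1054, 1257 and 947.4 at gd18, and 8778, 7754 and 5443 at pnd2. The lowest flank array was thus more than 4 times the highest middle array, and the contrast was 3.21 ± 0.15 (SE; limma, adjusted p = 2.25e-10). Its level at pnd2 was not distinguished from that at gd12 (log2 difference -0.42 ± 0.21, adjusted p = 0.118).

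Lin28a, which blocks maturation of let-7 microRNAs in stem and germ cells, read 670.4, 1083 and 375.6 at gd12, then 51.34, 66.24 and 67.44 at gd16 and 93.19, 161.1 and 97.44 at gd18. At pnd2 it read 1305, 1187 and 729.2, and the contrast was 2.89 ± 0.27 (limma, adjusted p = 7.11e-07). Lin28a was still at 360, 1103 and 1170 at gd14, so the low arrays were those of gd16 and gd18 alone among the stages from gd12 on.

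Sall4, a zinc-finger factor required in germ cells, read 3243, 4434 and 1841 at gd12, 97.58, 68.41 and 77.21 at gd16, 165.1, 187.2 and 108.6 at gd18 and 850.9, 670.6 and 503 at pnd2. Every pnd2 array was above every middle array, but the return was partial: pnd2 lay 2.12 ± 0.27 below gd12 on the log2 scale (limma, adjusted p = 7.05e-06). Tfap2c, the AP-2 gamma factor of primordial germ cells, had the same shape, at 2393, 2949 and 1460 at gd12 and 466.5, 281.5 and 367.3 at pnd2, against 80.33 to 232.5 at gd16 and 23.51 to 146.4 at gd18. Its pnd2 level was also below its gd12 level (log2 difference -2.48 ± 0.44, limma, adjusted p = 0.000228). With the mean of all its probe sets the contrast of Tfap2c was 2.07 instead of 2.98, and it did not return.

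Pou5f1 (Oct4), a core pluripotency factor that oocytes also express, read 331.6, 551.4 and 202.1 at gd12 and 340.9, 263.1 and 254.2 at pnd2. It read 134.9, 55.65 and 96.63 at gd16 and 75.08, 29.65 and 46.54 at gd18. The contrast was 1.79 ± 0.23 (limma, adjusted p = 2.45e-05), and pnd2 was not distinguished from gd12 (-0.22 ± 0.33, adjusted p = 0.636). Prdm1 (Blimp1), which specifies primordial germ cells, read 592, 556.2 and 386.1 at gd12, 109.8 to 223.3 at gd16, 91.54 to 201.4 at gd18 and 237.2, 259.9 and 286.2 at pnd2. All 6 of these genes were lowest on the array of gd12 sample 15 among the 3 of gd12. Markers of germ cells as a whole were also low on that array: the RNA-binding protein Dazl read 1285 there against 2990 and 4949, and the RNA helicase Ddx4 581 against 1390 and 2982. The part of germ cell content in the spread of these genes at gd12 was not tested.

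Other members of the pluripotency list did not return. Sox2, a pluripotency factor, read 2019, 2668 and 1443 at gd12 and 5.29 to 14.23 at pnd2, within the range of 3.27 to 66.87 of the middle arrays. Prdm14, a regulator of germ cell reprogramming, likewise read 280.3 to 733.8 at gd12 and 8.05 to 17.58 at pnd2. Dppa3 (Stella), a maternal-effect gene, was called in the pnd2 flank (3.04, limma, adjusted p = 4.94e-07) and differed by 0.32 in the gd12 flank (adjusted p = 0.419). Trim71, a target of let-7 microRNAs, differed likewise by 1.81 (adjusted p = 8.64e-06) and -0.05 (adjusted p = 0.891). Kit, the receptor of stem cell factor, was lower in the gd12 flank (-0.89, limma, adjusted p = 0.000695) and higher in the pnd2 flank (1.61, adjusted p = 2.43e-06).

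**Figure D2:**
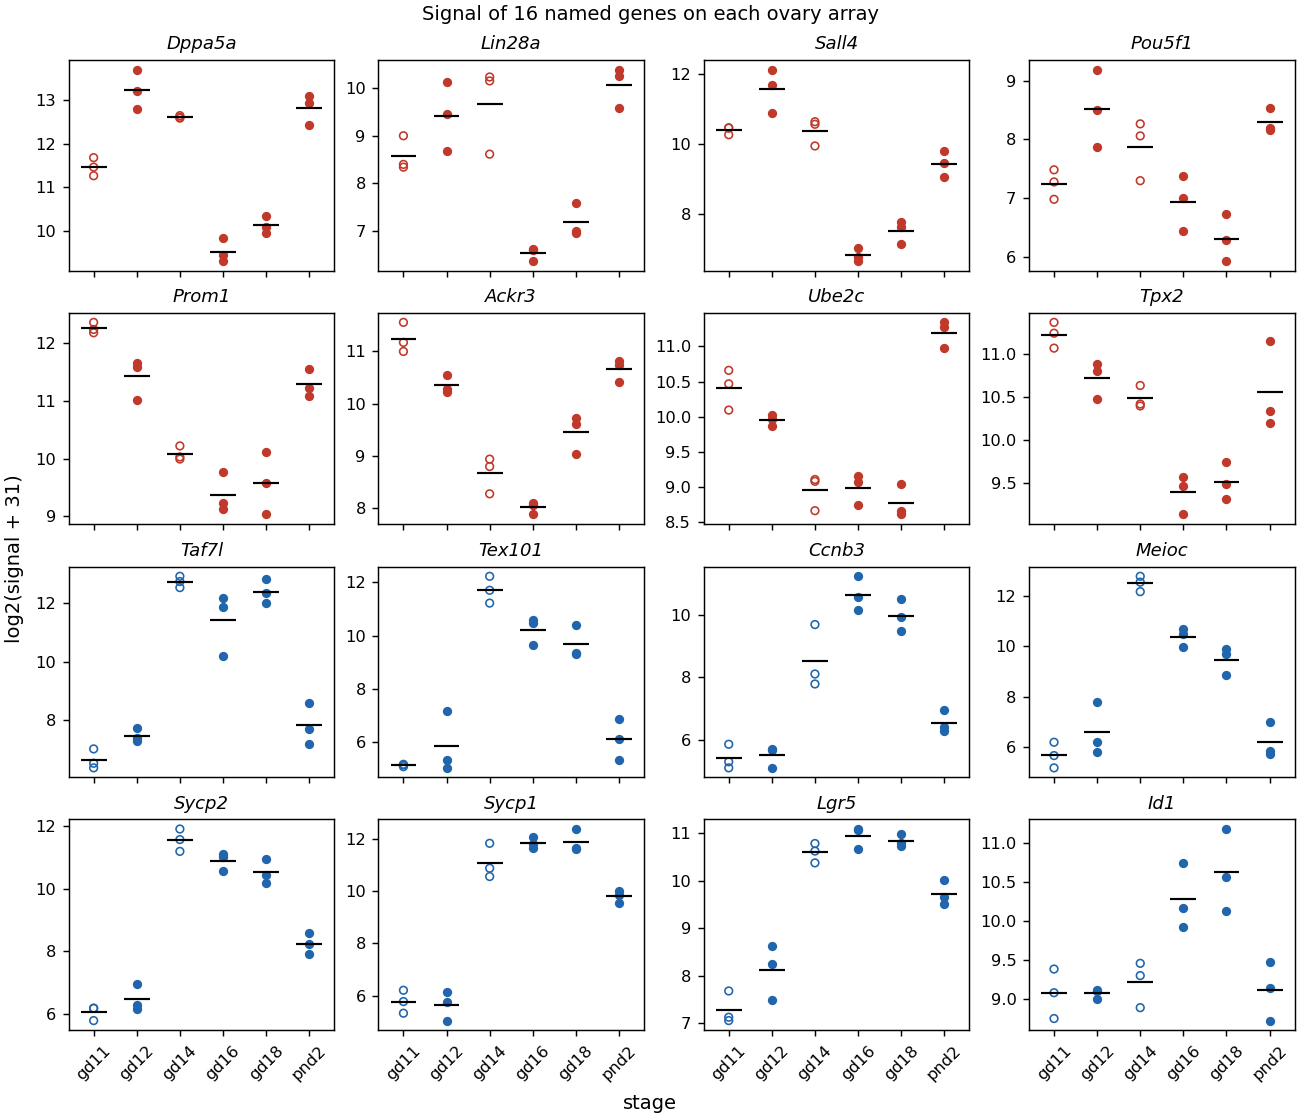
Each panel plots log2(signal + 31) of 1 gene on each of the 18 ovary arrays by stage, with a bar at the stage mean; filled points are the 12 arrays compared and open points the gd11 and gd14 arrays. In the upper panels (red) the pnd2 points lie above the gd16 and gd18 points. They are near the gd12 points for Dppa5a (5443 to 8778 against 7126 to 13270), below them for Sall4 and above them for Ube2c. In the lower panels (blue) the pnd2 points fall, fully for Meioc and partly for Sycp1.

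Promoters are shown for the first 3 named genes of each direction, by the size of the smaller flank, that are in the promoter table, because members that moved together can be compared by the short motifs they hold. Dppa5a, Sall4, Tfap2c and Sel1l3 rank before Pou5f1 and are not shown. The windows are the 250 bases before the first listed start of each gene (RefSeq, GRCm38.p6), 5′ to 3′ on the strand of the gene: Lin28a chr4:134018817-134019066 (minus strand), Prom1 chr5:44101737-44101986 (minus), Pou5f1 chr17:35505782-35506031 (plus), Taf7l chrX:134476491-134476740 (minus), Tex101 chr7:24672051-24672300 (minus) and Ccnb3 chrX:7041620-7041869 (minus). Prom1 and the last 3 genes are described further below. Capitals mark the motifs found: the cell cycle homology region (CHR) in Lin28a, CCAAT boxes on either strand in Prom1, Pou5f1 and Tex101, and an E-box in Taf7l. None of the motifs searched was found in the Ccnb3 window.
Lin28a: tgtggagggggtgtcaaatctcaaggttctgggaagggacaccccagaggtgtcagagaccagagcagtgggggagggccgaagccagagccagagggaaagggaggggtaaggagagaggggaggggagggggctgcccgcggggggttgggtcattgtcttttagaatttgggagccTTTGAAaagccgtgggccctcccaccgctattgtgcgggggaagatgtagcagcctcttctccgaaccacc
Prom1: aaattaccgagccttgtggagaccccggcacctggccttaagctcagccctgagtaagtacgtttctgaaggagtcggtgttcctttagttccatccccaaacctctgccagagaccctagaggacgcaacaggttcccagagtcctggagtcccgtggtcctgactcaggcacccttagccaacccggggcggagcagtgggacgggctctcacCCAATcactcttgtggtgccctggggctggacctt
Pou5f1: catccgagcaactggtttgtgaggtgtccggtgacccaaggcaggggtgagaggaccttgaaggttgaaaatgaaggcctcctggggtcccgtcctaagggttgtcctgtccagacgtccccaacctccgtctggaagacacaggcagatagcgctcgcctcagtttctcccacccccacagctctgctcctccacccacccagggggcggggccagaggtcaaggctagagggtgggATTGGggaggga
Taf7l: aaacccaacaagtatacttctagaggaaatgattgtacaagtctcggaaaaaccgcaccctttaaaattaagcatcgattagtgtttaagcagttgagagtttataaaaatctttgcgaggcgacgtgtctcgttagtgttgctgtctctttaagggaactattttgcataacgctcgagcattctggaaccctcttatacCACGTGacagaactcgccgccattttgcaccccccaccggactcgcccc
Tex101: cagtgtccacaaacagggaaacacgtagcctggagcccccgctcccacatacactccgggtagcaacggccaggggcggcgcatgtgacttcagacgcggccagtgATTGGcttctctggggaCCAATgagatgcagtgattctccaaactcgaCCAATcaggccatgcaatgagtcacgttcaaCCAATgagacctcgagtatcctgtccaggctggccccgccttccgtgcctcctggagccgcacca
Ccnb3: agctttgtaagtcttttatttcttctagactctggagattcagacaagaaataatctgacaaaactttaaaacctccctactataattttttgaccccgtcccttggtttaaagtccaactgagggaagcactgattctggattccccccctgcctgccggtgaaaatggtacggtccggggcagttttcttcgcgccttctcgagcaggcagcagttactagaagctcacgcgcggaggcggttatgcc

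Both strands were searched for the E-box (CACGTG), the E2F motif (TTCCCGCC), the cAMP response element, or CRE (TGACGTCA), the motif of nuclear factor Y named for its letters (CCAAT), the CHR described above (TTTGAA) and the binding motif of the GATA factors (AGATAA). A promoter was matched by gene ID for 164 of the 216 genes that returned high and 395 of the 489 that returned low. The CHR was present in 18.3% of the promoters that returned high and 6.58% of those that returned low, against 10.2% of 10156 promoters of tested genes and 16.3% of all 27025 promoters. CCAAT was present in 43.3% and 31.6%, against 36.5% of tested genes and 34.5% of all promoters. Among the called members of the mitosis list with a promoter, 19 of 26 (73.1%) held CCAAT and 9 (34.6%) the CHR. Among those of the meiotic prophase list, 6 of 22 (27.3%) held the E-box, which 8.49% of tested genes hold and 9.87% of all genes that returned low. The E2F motif, the CRE and the GATA motif were present in 2.44%, 1.22% and 4.27% of the genes that returned high and in 4.81%, 2.53% and 6.58% of those that returned low. These shares are descriptions of the sequence and no test was made of them.

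The other genes with the largest returns included a membrane glycoprotein, a chemokine receptor, a growth factor, a claudin and a tubulin. Prom1 (CD133), a membrane glycoprotein of progenitor cells, read 3205, 2036 and 3054 at gd12, 842.3, 568.9 and 531.8 at gd16, 1074, 496.4 and 737.4 at gd18 and 2971, 2350 and 2143 at pnd2. Its ends were not distinguished (pnd2 minus gd12 -0.14 ± 0.23, limma, adjusted p = 0.68), and the contrast was 1.87 ± 0.16 (adjusted p = 2.96e-07). Ackr3, an atypical receptor of the chemokine Cxcl12, read 1456, 1162 and 1214 at gd12 and 1682, 1778 and 1330 at pnd2, against 204.4 to 242.8 at gd16 and 489.3 to 814.8 at gd18. Its gd18 arrays had already left the gd16 level, and with gd18 alone as the middle its contrast was 1.05 instead of 1.77.

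The growth factor Fgf5 read 202, 102.6 and 89.68 at gd12 and 60.57, 104.5 and 93.86 at pnd2, against 2.07 to 20.25 on the middle arrays. Its contrast of 1.83 ± 0.22 depended on the pseudocount because the middle values were low: it was 2.97 with a pseudocount of 8 and 0.85 with 116. Plac1, an X-linked gene best known from the placenta, read 815.8, 1047 and 950.2 at gd12, 109.4 to 256.1 on the middle arrays and 714.3, 596.6 and 563.6 at pnd2. The beta-tubulin Tubb2b read 4428, 2770 and 4094 at gd12, 499.6 to 1255 at gd16, 1085 to 2228 at gd18 and 5544, 3543 and 5920 at pnd2. Sel1l3, Epp13 and Cntnap5a completed the 14 genes with the largest smaller flank, with contrasts of 1.84 ± 0.21, 1.59 ± 0.23 and 1.56 ± 0.20.

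Cldn8, a tight junction claudin on the list of mesonephros and nephric duct genes, read 1040, 452.3 and 717.4 at gd12, 2.16 to 72.49 on the middle arrays and 124.8, 182.9 and 127.7 at pnd2. The pnd2 rise was small beside the gd12 level (pnd2 minus gd12 -2.07 ± 0.41, limma, adjusted p = 0.000581). Of that list 6 of 16 tested members (37.5%, against 12.4% of all tested genes) were called higher and Cldn8 alone returned. The summed signal of the list was 9097 to 11061 at gd12, 6261 to 7983 at gd16, 4220 to 4519 at gd18, and at pnd2 2877 to 4585, so it did not come back at pnd2. Nervous tissue genes summed to 1671 to 11083 at gd12 and to 1314 to 2455 at pnd2, with 1 of 14 called higher and 0 returning. The part of adjoining tissue in the gd12 values was not tested.

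Most genes of mitosis and the spindle were called higher in the return contrast. Of 39 tested, 32 (82.1%, against 12.4% of all tested genes) were higher and 0 lower, with a median of 0.59. In the gd12 flank 27 were called higher and 0 lower (median 0.67), in the pnd2 flank 21 higher and 1 lower (median 0.42). Both flanks were called higher for 14 members, and 11 returned, against 2.85% and 1.72% of all tested genes. The summed signal of the list was 101421 to 123752 at gd12, 66409 to 74741 at gd16, 63926 to 76024 at gd18, and at pnd2 94621 to 110948, with no overlap between ends and middle.

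Ube2c, the ubiquitin-conjugating enzyme of the anaphase-promoting complex, read 1010, 906.4 and 971.3 at gd12, 541.9, 504.6 and 397.8 at gd16, 495.8, 361.2 and 374.2 at gd18 and 2566, 1992 and 2439 at pnd2. It went past its gd12 level at pnd2 (log2 difference 1.24 ± 0.18, limma, adjusted p = 3.01e-05). Tpx2, which targets Aurora A to the spindle, read 1850, 1390 and 1748 at gd12 and 2241, 1143 and 1263 at pnd2, against 533.9 to 823.6 on the middle arrays (contrast 1.19 ± 0.15, adjusted p = 1.39e-05). With the mean of all its probe sets the contrast of Tpx2 was 0.60. Nusap1, a microtubule-bundling protein, and Cdca8 (borealin), of the chromosomal passenger complex, had contrasts of 0.97 ± 0.11 and 0.91 ± 0.09. The activator Cdc20 read 9208 to 9884 at gd12, 3660 to 4819 on the middle arrays and 5351 to 5919 at pnd2, all 3 groups apart. Top2a, the topoisomerase of dividing cells, did not return: it was higher in the gd12 flank (1.24, limma, adjusted p = 3.33e-07) and differed by -0.07 in the pnd2 flank (adjusted p = 0.702).

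Of 35 tested DNA replication genes, 24 (68.6%, against 12.4% of all tested genes) were called higher and 0 lower. The median was 0.45, but the list leaned on gd12. In the gd12 flank 23 were called higher and 0 lower (median 0.57), in the pnd2 flank 12 higher and 1 lower (median 0.25). Their summed signal was 109885 to 116607 at gd12, 76332 to 77167 at gd16, 59287 to 67370 at gd18, and at pnd2 76427 to 87148, which overlapped gd16. Of the list 5 genes returned, against 1.72% of all tested genes, among them Orc1, Dut, Pola1 and Gins2. Gins2 did not with the mean of all its probe sets. Orc1, a subunit of the origin recognition complex, read 438.8, 468 and 480 at gd12, 197.3 to 282 on the middle arrays and 504.9, 486.5 and 541.3 at pnd2, a contrast of 1.04 ± 0.12 (limma, adjusted p = 5.77e-06). Dut, the dUTPase that keeps uracil out of DNA, read 4234 to 5548 at gd12, 1355 to 2442 in the middle and 2911 to 3510 at pnd2; its contrast of 1.13 was 0.50 with the mean of all its probe sets, and it then did not return. Pola1, the catalytic subunit of DNA polymerase alpha, read 744.3 to 804.8 at gd12, 287.3 to 552.5 in the middle and 640.1 to 836 at pnd2. The checkpoint kinase Chek2 read 798.2 to 867.5 at gd12, 354.8 to 688.1 in the middle and 749.7 to 1038 at pnd2. Of its list of apoptosis and oocyte checkpoint genes 4 of 23 (17.4%) were called higher and 3 (13%) lower. These shares were near the 12.4% and 16.8% of all tested genes.

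Of 25 histone and DNA methylation regulators, 10 (40%) were called higher and 3 (12%) lower, and 2 returned high. Of all tested genes 12.4% were called higher, 16.8% lower, and 1.72% returned high. Dnmt1, the maintenance DNA methyltransferase, was only just apart at gd12, with 2503, 2793 and 2659 against 1685 to 2383 in the middle, and reached 5194, 5154 and 3387 at pnd2. Its gd12 flank of 0.38 was not called (limma, adjusted p = 0.0682), unlike its pnd2 flank of 1.13 (adjusted p = 2.81e-05). Prmt5, an arginine methyltransferase, read 1413 to 1791 at gd12, 964.4 to 1277 in the middle and 1466 to 1725 at pnd2.

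Lists of signals and cell contacts held 0 to 2 genes each that returned high, among 11 to 27 tested members. In the Notch pathway 3 of 17 members (17.6%) were called higher and 1 lower, and 2 returned high. Of all tested genes 12.4% were called higher and 1.72% returned high. The Notch ligand Jag1, which oocytes express, read 895.6, 748.4 and 925.9 at gd12, 550.4, 152.9 and 183.6 at gd16, 715.2, 549.4 and 725.5 at gd18 and 2758, 1233 and 1152 at pnd2. The gd12 arrays were close above the gd18 arrays, and with gd18 alone as the middle Jag1 had a contrast of 0.79 and was not called (adjusted p = 0.0825). Hey1, a Notch target, read 1345, 1382 and 1077 at gd12, 478.7 to 589.1 in the middle and 1603, 1006 and 803.7 at pnd2 (contrast 1.04 ± 0.14, limma, adjusted p = 3.46e-05). Inhbb, the activin beta B subunit, read 617.9, 1278 and 926.6 at gd12, 339.4 to 500.4 in the middle and 1147, 861.4 and 1022 at pnd2. E-cadherin, Cdh1, an adhesion molecule of epithelia and germ cells, read 417.3, 638 and 430.7 at gd12, 138 to 177.4 at gd16, 198.8 to 369.3 at gd18 and 396.8, 541.2 and 466.3 at pnd2. In cholesterol synthesis 5 of 18 members (27.8%, against 12.4% of all tested genes) were called higher and 0 lower. Of them 2 returned high, against 1.72% of all tested genes. Idi1, the isopentenyl-diphosphate isomerase, read 2860 to 3405 at gd12, 541.6 to 857.3 in the middle and 963.6 to 1044 at pnd2, and Sqle, squalene epoxidase, 2150 to 2446, 1044 to 1516 and 1621 to 2033. The stromal protease Fap returned with a pnd2 flank of 0.64 that was not called (limma, adjusted p = 0.1). Of its list of stroma and matrix genes 2 of 33 were called higher and 8 lower (6.06% and 24.2%, against 12.4% and 16.8% of all tested genes).

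**Figure D3:**
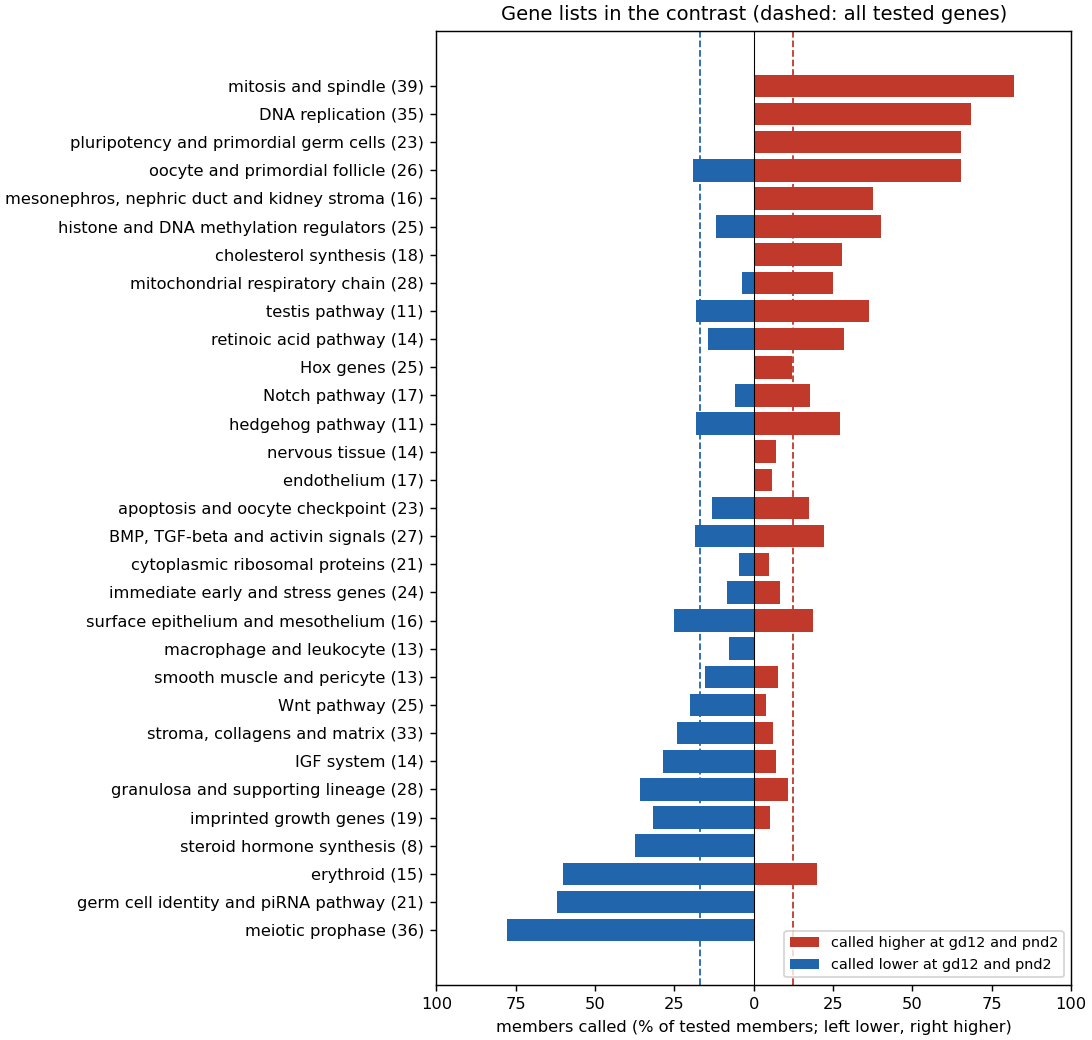
Bars show the percent of tested members of each gene list called higher (red, right) or lower (blue, left) at gd12 and pnd2 than at gd16 and gd18, with the number of tested members in brackets, ordered by the difference of both shares. Dashed lines mark the shares over all tested genes, 12.4% higher and 16.8% lower; mitosis (82.1% higher) and meiotic prophase (77.8% lower) stand at the ends.

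The genes that returned low were led by germ cell genes, 5 of the leading 14 of them on the X chromosome (Taf7l, Ccnb3, Tex16, Rhox13 and Nxf2). Taf7l, a germ cell paralogue of the general transcription factor subunit Taf7, read 136.6, 181.6 and 124.9 at gd12, 1146, 3659 and 4526 at gd16, 5070, 7147 and 4049 at gd18 and 116, 180.3 and 354.4 at pnd2. Both ends lay far below every middle array, with a contrast of -4.23 ± 0.28 (limma, adjusted p = 7.53e-09) and no distinguishable difference between the ends (0.37 ± 0.39, adjusted p = 0.49).

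Ccnb3, a cyclin of early meiotic prophase, read 19.91, 21.48 and 3.19 at gd12, 1110, 1502 and 2413 at gd16, 685.7, 1444 and 960.9 at gd18 and 53.06, 47.3 and 93.69 at pnd2. Tex16 read 6.06 to 18.4 at gd12, 426.3 to 1572 in the middle and 20.19 to 112.5 at pnd2. The homeobox gene Rhox13 read 16.05 to 252.7 at gd12, 1404 to 2031 in the middle and 102.7 to 260.3 at pnd2, and its gd14 arrays were higher still at 8513, 5348 and 5005. Nxf2, an RNA export factor, read 45.11 to 48.86 at gd12, 530.1 to 1151 in the middle and 93.35 to 228.1 at pnd2. On gd16 sample 7, the library low in Xist, Taf7l, Ccnb3, Tex16, Rhox13 and Nxf2 were each the lowest of the 3 gd16 arrays, and so were the autosomal Tex101, Adad1, Taf7l2, Sycp2 and Aspa of the same leading 14. X-linked genes were 31 of the 489 that returned low (6.34%) and 11 of the 216 that returned high (5.09%), against 446 of 12550 tested genes with a chromosome (3.55%), a description without a test.

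Tex101, a surface glycoprotein of germ cells, read 9.03, 115.4 and 1.99 at gd12, 768, 1382 and 1514 at gd16, 607.4, 1335 and 616.8 at gd18 and 9.16, 39.33 and 87.28 at pnd2 (contrast -3.98 ± 0.33, limma, adjusted p = 2.03e-07). Adad1, an RNA-binding protein of germ cells, read 13.52 to 50.33 at gd12, 472.8 to 1044 in the middle and 35.91 to 79.95 at pnd2. Taf7l2 and Glipr1l2 were near background at gd12 (5.4 to 29.23 and 4.52 to 17.52) and low at pnd2 (38.72 to 50.1 and 11.49 to 58.87), against 295 to 666.4 and 212 to 737.9 in the middle. The largest contrast among the genes that returned low was that of Tktl1, a transketolase-like gene chosen after its value was seen, at -4.50 (limma, adjusted p = 3.9e-10), with a gd12 flank of -6.80 and a pnd2 flank of -2.21.

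Genes of meiotic prophase made up the largest list among the genes that returned low. Of 36 tested, 28 (77.8%, against 16.8% of all tested genes) were called lower and 0 higher. The median contrast was -1.60, and 16 returned, against 3.88% of all tested genes. The median of the gd12 flank was -1.99 and that of the pnd2 flank -0.59, so as a list they fell only in part by pnd2. The summed signal of the list was 11613 to 16126 at gd12, 43765 to 57015 at gd16, 46778 to 71977 at gd18, and at pnd2 33943 to 48613, with overlap of pnd2 and both middle stages.

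Meioc, which keeps germ cells in the meiotic programme, returned in full: it read 42.05, 190.4 and 25.34 at gd12, 1616, 975 and 1397 at gd16, 433, 792.6 and 910.6 at gd18 and 21.63, 26.43 and 98.36 at pnd2. Its gd14 arrays stood above all of these at 6957, 4555 and 5921. Spo11, the enzyme that makes meiotic DNA breaks, read 78.62 to 130.3 at gd12, 593.5 to 848.1 at gd16, 300.8 to 454.9 at gd18, and at pnd2 15.91 to 87.45. Dmc1, the meiotic strand exchange protein, read 43.82 to 106.8 at gd12, 553.4 to 576.6 at gd16, 193.7 to 378.8 at gd18, and at pnd2 84.09 to 121. For Meioc, Spo11 and Dmc1 the pnd2 arrays were at or near the gd12 range, while the summed signal of the list at pnd2 stayed above its gd12 range.

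Genes of the synaptonemal complex were in part lower at pnd2 than in the middle and in part not. Sycp1, its transverse filament, read 1.92, 40.1 and 22.83 at gd12, 3550, 3214 and 4233 at gd16, 3144, 5273 and 3059 at gd18 and 712.2, 902.2 and 1001 at pnd2; pnd2 was 4.16 ± 0.32 above gd12 (log2; limma, adjusted p = 1.6e-08). Sycp2, of the lateral element, read 41.16 to 94.98 at gd12, 1133 to 2141 in the middle and 212.8 to 351.5 at pnd2, and Syce3, of the central element, 36.87 to 48.84, 1043 to 2266 and 208.6 to 454.9. Sycp3, the other main lateral element protein, did not return: it read 201.3 to 737.5 at gd12, 3756 to 6505 at gd16, 10690 to 14790 at gd18, and at pnd2 8735 to 15990. The cohesin subunit Smc1b likewise differed by -4.15 in the gd12 flank (limma, adjusted p = 1.97e-07) and by -0.11 in the pnd2 flank (adjusted p = 0.863). Stra8, the retinoic acid target that starts meiosis, read 10.84 to 135.3 over the 12 arrays and was not called.

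**Figure D4:**
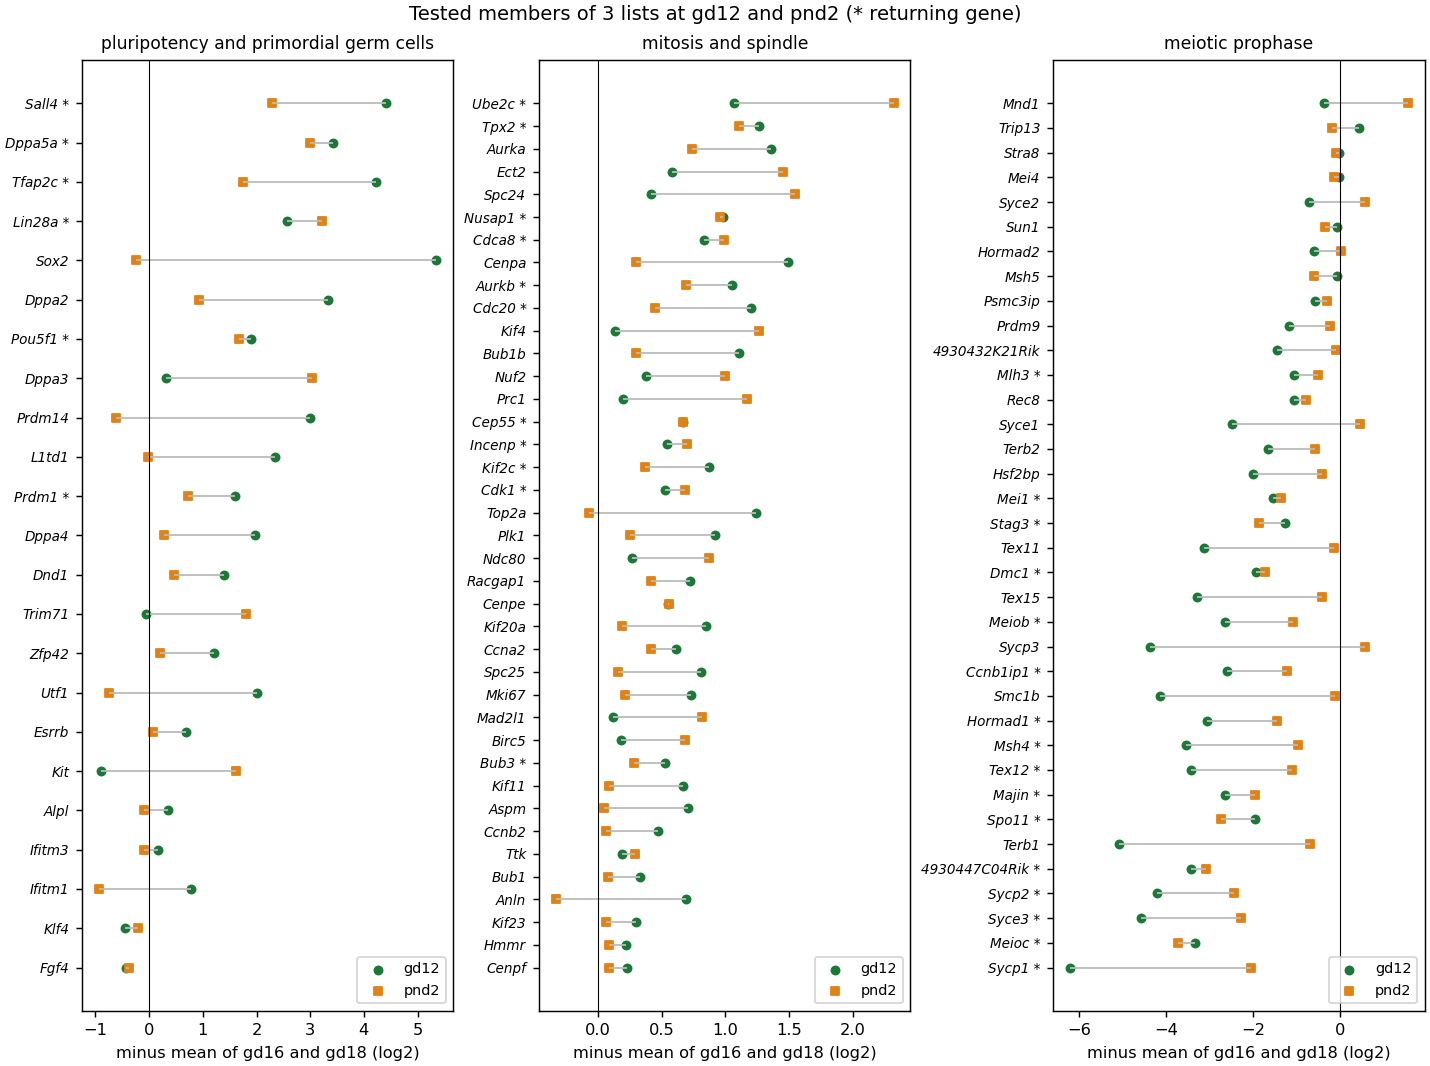
Points give the log2 difference from the mean of gd16 and gd18 of each tested member of 3 lists, at gd12 (green circles) and at pnd2 (orange squares), joined by a line; an asterisk marks returning genes. In the meiotic list both points of Meioc lie near each other (-3.33 and -3.73) while those of Sycp1 lie apart (-6.21 and -2.05), and in the pluripotency list Sox2 is high at gd12 only.

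Of the germ cell identity and piRNA list 13 of 21 (61.9%, against 16.8% of all tested genes) were called lower and 0 higher. The median was -0.98. Against 3.88% of all tested genes, 4 members returned: Taf7l, Tex101, Tdrd7 and Ddx25. Tdrd7, a tudor protein of germ granules, read 247.3 to 505.8 at gd12, 1226 to 1967 in the middle and 1056 to 1130 at pnd2, a pnd2 flank of -0.58 ± 0.18 (limma, adjusted p = 0.0208). Ddx25, an RNA helicase of germ cells, had a contrast of -1.03 ± 0.22, which was -0.63 and not called with gd16 alone as the middle (limma, adjusted p = 0.0814). The piRNA gene Tdrd9 was low at gd12 only, with 51.02 to 95.89 at gd12, 3086 to 10630 in the middle and 3202 to 5809 at pnd2. The summed signal of the list was 5247 to 16398 at gd12, 30484 to 75369 in the middle and 43813 to 51065 at pnd2. In the pnd2 flank 4 members were called lower and 4 higher, and the sum at pnd2 lay within the range of the middle stages.

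Among somatic lists, that of the granulosa and supporting lineage held receptors and factors of pregranulosa cells. Of its members 10 of 28 (35.7%) were called lower and 3 (10.7%) higher, and 2 returned low. Of all tested genes 16.8% were called lower, 12.4% higher, and 3.88% returned low. Lgr5, a receptor of R-spondins on pregranulosa cells, read 148.1, 361.1 and 273.4 at gd12, 1603, 2145 and 2107 at gd16, 1676, 1999 and 1751 at gd18 and 695.5, 770 and 1010 at pnd2 (contrast -1.97 ± 0.17, limma, adjusted p = 2.69e-07). Its return was partial, with pnd2 1.61 ± 0.24 above gd12 (adjusted p = 3.94e-05). Runx1, a transcription factor of supporting cells, read 237.4, 685.7 and 435.4 at gd12, 979.1 to 1461 in the middle and 653.1, 953 and 871.6 at pnd2, and did not return with the mean of all its probe sets (-0.63). Foxl2, the main factor of granulosa identity, was lower in the gd12 flank (-2.74, adjusted p = 1.17e-08) and differed by 0.41 in the pnd2 flank (adjusted p = 0.131).

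Id1, an inhibitor of helix-loop-helix factors induced by BMP signals, had nearly equal ends: it read 482, 517.8 and 521.7 at gd12, 939.1, 1682 and 1118 at gd16, 1479, 2291 and 1089 at gd18 and 390.6, 679.4 and 531.4 at pnd2 (contrast -1.36 ± 0.19, limma, adjusted p = 4.18e-05). Its relative Id4 read 940.2 to 1257 at gd12, 1548 to 2616 in the middle and 714.1 to 1504 at pnd2; it was not called with gd16 alone as the middle (-0.72, limma, adjusted p = 0.08) and did not return under median scaling. In their list of BMP, TGF-beta and activin signals 6 of 27 were called higher and 5 lower (22.2% and 18.5%, against 12.4% and 16.8% of all tested genes). Boc, a hedgehog co-receptor, Hspb1, a small heat shock protein, Myl9, a smooth muscle myosin light chain, and the imprinted exchange factor Rasgrf1 returned low with contrasts of -0.83 ± 0.13, -1.11 ± 0.20, -0.78 ± 0.16 and -1.27 ± 0.30. Under median scaling Hspb1, Myl9 and Rasgrf1 were called but their groups overlapped. Aspa, which splits N-acetylaspartate, read 68.81 to 126.5 at gd12, 375.2 to 967.9 in the middle and 52.39 to 138.4 at pnd2.

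The globin gene Hbb-b2 read 80.12, 58.05 and 5.79 at gd12, 678.4, 420.4 and 686 at gd16, 563, 1651 and 312.6 at gd18 and 39.88, 52.26 and 44.75 at pnd2, and its contrast of -3.15 ± 0.31 was -1.80 with the mean of all its probe sets. Beta-globin genes are close in sequence, and signals of one can come from another. Of the erythroid list, which does not hold Hbb-b2, 9 of 15 (60%) were called lower and 3 higher (20%), and 0 returned. Of all tested genes 16.8% were called lower and 12.4% higher. Alas2, the erythroid enzyme of haem synthesis, read 266.4 to 488.2 at gd12, 1441 to 2925 at gd16, 394 to 2965 at gd18, and at pnd2 54.76 to 144.9. The summed erythroid signal was 46943 to 53957 at gd12, 14852 to 21779 at gd16, 4153 to 11016 at gd18, and at pnd2 3030 to 4023. The part of blood content in the values of Hbb-b2 was not tested.

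Genes of the oocyte and primordial follicle show how a gene can pass the return contrast without returning. Of 26 tested, 17 (65.4%, against 12.4% of all tested genes) were called higher and 5 lower (19.2%, against 16.8%), but 1 returned, Jag1. In the gd12 flank 14 were called lower and 1 higher, and in the pnd2 flank 24 higher and 1 lower. Zp3, of the egg coat, read 14.74 to 34.11 at gd12, 4.81 to 145.3 in the middle and 5042 to 9389 at pnd2, and Gdf9, an oocyte growth factor, 69.62 to 90.83, 110.1 to 311.9 and 2050 to 4847. Figla, the factor that starts the zona genes, was lower in the gd12 flank by -4.23 (limma, adjusted p = 5.38e-09) and higher in the pnd2 flank by 0.96 (adjusted p = 0.0183). Endothelial genes (1 of 17 called higher, 0 lower) and macrophage genes (0 higher, 1 of 13 lower) were below the shares over all genes.

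The gd11 and gd14 arrays, which did not choose the genes, were compared for the same genes. Of the 216 genes that returned high, 110 (50.9%) were called higher at gd11 than at gd14 and 8 (3.7%) lower, against 15.4% and 18.7% of all tested genes. Of the 489 that returned low, 283 (57.9%) were lower at gd11 than at gd14 and 9 (1.84%) higher. The median gd11 minus gd14 was 0.46 for the first set, -0.68 for the second and -0.02 for all tested genes. This comparison uses other arrays, but the fit shares its estimate of spread. It holds no pnd2 array, so it says nothing of the return at pnd2. All tested genes are a wide background, as the genes called in the gd12 flank alone were not compared. The 3'/5' ratio of Gapdh was 2.99 to 3.28 at gd11 and 4.09 to 4.96 at gd14, and its part was not tested. Among the leading 14 of each direction, 7 of the high genes were higher at gd11 and 2 lower, while all 14 of the low genes were lower. Ackr3 fell from 2984, 2016 and 2278 at gd11 to 276.7, 457.3 and 411.5 at gd14 (log2 2.58 ± 0.21, limma, adjusted p = 4.3e-08). Genes of other tissues, and the Hox gene family, moved the same way between these stages, and gd11 samples 16 and 18 held mesonephros. Nervous tissue genes summed to 5613 to 38434 at gd11 and 1056 to 1214 at gd14 (10 of 14 called higher at gd11, 0 lower), mesonephros genes to 9545 to 10710 and 4530 to 6203 (9 of 16 higher, 0 lower), and Hox genes to 24540 to 37444 and 6439 to 9654 (17 of 25 higher, 0 lower). The part of nervous tissue and mesonephros in the gd11 values was not tested. Dppa5a and Lin28a went the other way and were lower at gd11 (-1.15 ± 0.21 and -1.09 ± 0.38).

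By gd14 the level had moved closer to the middle than to gd12 for 132 of the 216 genes that returned high and for 298 of the 489 that returned low. It had gone past the middle level for 29 and 128 of them, as for Meioc and Rhox13. The remainder, 84 and 191 genes, were nearer gd12 at gd14, as for Dppa5a, Lin28a and Id1.

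**Figure D5:**
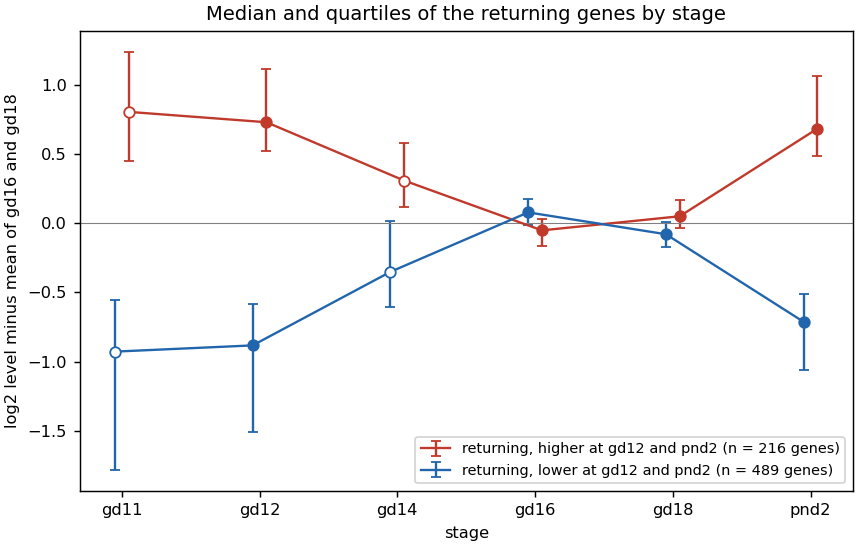
Points are medians and bars quartiles, over genes, of the log2 stage mean minus the mean of gd16 and gd18, for the 216 genes that returned high (red) and the 489 that returned low (blue); open points are gd11 and gd14, whose arrays did not choose the genes. Medians at gd14 (0.309 and -0.351) lie between those of gd12 (0.731 and -0.883) and 0, and those of pnd2 are 0.685 and -0.713.

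How far the ends matched was given by pnd2 minus gd12. It was not called for 171 of the 216 genes that returned high and 382 of the 489 that returned low; it was called for 20.8% and 21.9%, against 40.2% of all tested genes. Having chosen genes on the same side in both stages favours small differences, so nothing is read from these shares. Where called, the genes that returned high were split (19 higher and 26 lower at pnd2), and those that returned low were mostly higher at pnd2 (97 against 10). The middle stages differed from each other for 10.2% of the genes that returned high and 3.89% of those that returned low, against 8.2% of all tested genes. Where called, the genes that returned high were lower at gd16 in 20 cases and higher in 2, and those that returned low were higher at gd16 in 19 and lower in 0. The same arrays chose the genes, so nothing is read from these counts either.

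Other probe sets of the same genes gave a further reading of the same arrays. Of 179 other tested probe sets of 108 genes that returned high, 151 had the same sign and 88 (49.2%) were called in the same direction, against 10.1% of 9571 such probe sets over all genes. Of 313 of 194 genes that returned low, 281 had the same sign and 139 (44.4%) were called, against 11.3%. These arrays had chosen the genes, so higher shares follow in part from the choice and are no independent support. Opposite calls numbered 4 and 6, among them probe sets of Cops6, Maco1 and Med14, and of Fam210a, Hbs1l, Homer1, Napg and Pias2. At the edge of the rule, Rps4l was just inside, its lowest flank array reading 1379.32 and its highest middle array 1376.96, and Psma3 just outside, with 13182.1 and 13192. Among the low genes, 5430402O13Rik was just inside (116.24 at its highest flank array and 116.33 at its lowest middle array) and Cflar just outside (788.13 and 787.87).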

How the data were processed

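RNA of whole ovaries went through 2 rounds of amplification and biotin labelling before hybridisation to Affymetrix Mouse430_2 arrays, per the labels' protocols. The authors deposited linear signal intensities made with GCOS, per the submitters' processing notes; for its version and settings, not given in the sources used here, nothing is assumed. The 2%-trimmed mean of each array was 500. Precision is limited by the number of arrays.

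Intensities were transformed to log2(signal + 31), 31 being the 25th percentile of ovary values, which understates changes of dim genes. Probe sets entered the test if any stage mean exceeded 116.05: 26431 of 45101, with 64 control probe sets left out. The tested probe set with the highest mean and a single annotated gene stood for a gene (12592 genes). All 18 ovary arrays were fitted with limma 3.58.1 in R 4.3.3, with 1 term per stage, a mean-variance trend and 12 residual degrees of freedom. Tests were two-sided and adjusted over all tested probe sets (Benjamini-Hochberg). Samples of a stage come from different dams per the series text, apart from gd11 samples 18 and 19.

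Named genes were the 14 returning genes of each direction with the largest smaller flank, without clone names, and up to 4 returning members per list and direction; further list members are given as contrasts. The members, lists and rule were chosen with earlier results of these data known. On simulated arrays of 26431 probe sets with independent normal noise, 100 were changed by a return contrast of 0.6 and 100 by 1.2. The change was called in 49% and 87% of them, and called with the array order in 46% and 83%. Among unchanged probe sets there were 9 calls. Far more probe sets were called in the data (2834 higher and 3750 lower), so these rates need not hold there. Promoters and chromosomes came from RefSeq tables of GRCm38.p6.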

Additional observations from a re-analysis of the deposited data

Results flagged for a closer look

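For 18 of the 57 named genes the differences from gd16 and gd18 were unequal at the ends, by the test of pnd2 minus gd12 (limma, adjusted p under 0.05; values on the log2 scale, each from 3 arrays against 3). Among genes that returned low, pnd2 lay above gd12 by 4.16 for Sycp1, 2.29 for Syce3, 1.76 for Sycp2, 1.62 for Tdrd7, 1.61 for Lgr5, 1.29 for Nxf2, 1.06 for Ccnb3, 1.05 for Tex16 and 0.92 for Runx1. These genes came back in part only. Among genes that returned high, the difference was -2.48 for Tfap2c, -2.12 for Sall4, -2.07 for Cldn8, -1.62 for Idi1 and -0.51 for Dut, again a partial return. It was 1.24 for Ube2c, 0.86 for Jag1, 0.76 for Dnmt1 and 0.42 for Gins2, which exceeded their gd12 level at pnd2. The same arrays had chosen the genes. Single arrays were not tested as outliers, since each stage had 3.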

How the results depend on the processing

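Over 25 alternatives the 57 named genes gave 1418 values, of which 1402 kept direction and call, 16 lost the call and 0 reversed; the lost calls came with the 2-fold threshold or with gd16 or gd18 alone as the middle. The array order together with the call was lost in 25 values: these were the lost calls, Tfap2c, Dut, Gins2 and Runx1 with the mean of all probe sets, Hspb1, Id4, Myl9 and Rasgrf1 under median scaling, and Rasgrf1 under quantile normalization. Median scaling gave 4315 probe sets higher and 2199 lower, 352 and 278 returning genes, and 562 and 371 with both flanks called. With an added 2-fold threshold these counts were 432 and 573, 60 and 181, and 43 and 136. With gd16 alone as the middle, which needs 3 middle arrays apart instead of 6, 741 and 1312 genes returned, 555 had both flanks called higher, and 33.5% of those that returned high were higher at gd11 than at gd14. With gd18 alone, 1341 and 1807 probe sets were called, 331 genes returned high, and 163 and 290 had both flanks called. Counting both flanks called in place of the array order gave 359 genes high. Leaving out 1 array at a time gave 2277 to 2765 probe sets higher and 2954 to 3683 lower. Both flanks were called for 243 to 357 and 412 to 676 genes, the lowest lower count being without pnd2 sample 1. The returning genes were then 228 to 287 and 518 to 629, always above 216 and 489. With fewer arrays to keep apart the order is easier to meet. The fit to only 12 arrays gives no gd11 minus gd14. With a pseudocount of 116 contrasts of dim genes shrank, to 1.68 for Cldn8, 1.0 for Epp13, 0.83 for Cntnap5a, -0.72 for Rasgrf1, -1.93 for Glipr1l2 and -1.96 for Taf7l2, and the mean of all probe sets gave 1.97 for Sall4 and 0.67 for Orc1. With gd18 alone Hspb1 lost its call (adjusted p = 0.0519). Of the genes that returned high, 214 of 216 also did so under median scaling, and 276 of the 489 that returned low. No paired analysis was possible because the samples of different stages share no replicate numbers.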
